A study of Caenorhabditis elegans with 30 samples.

Results

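The day 1 comparison of germline-less worms lacking *set-26* with germline-less controls rested on 4 of the 30 RNA libraries of the study. The 4 libraries were chosen by their labels. They are both control libraries, *glp-1(e2141)*, and both libraries of strain IU714, *glp-1(e2141);set-26(tm2467)*, from day 1 adults fed L4440, the bacteria that carry the empty vector (EV). They are called control and *set-26(-)* here. All worms were raised at 25 °C for about 48 h. At that temperature the *glp-1* allele, which every group of the study carries, leaves adults without a germ line, so the RNA came from somatic tissue. The mutant group was a single deletion allele in a single strain. RNA was taken from pools of whole worms, in which fewer cells of a type and less RNA per cell cannot be told apart. The labels number the replicates 1 and 2. The study describes its replicates as biological, and the labels do not say which were grown or collected together. Beside them stand *glp-1(e2141);hcf-1(pk924)* mutants of strain IU701, called *hcf-1(-)*, at day 1 on the same bacteria, and control and *set-26(-)* worms on EV at days 3 and 12, with 2 libraries per group.

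SET-26 is a chromatin protein with a SET domain and a PHD finger that reads histone H3 methylated on lysine 4, and HCF-1, a homologue of mammalian host cell factor, is a chromatin co-factor that works with it. Worms that lack either protein live long. Many of the genes described here are known from the intestine, the organ in which the worm digests food, stores fat, makes yolk, detoxifies compounds and secretes defence proteins. Vitellogenins, the yolk proteins, are made there in adult hermaphrodites even when no germ line takes them up.

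The libraries were made with QuantSeq, in which a read marks the 3′ end of a polyadenylated transcript, so that counts were not divided by gene length. Day 1 libraries held 6823934 to 8347215 reads on genes, and the 10 most abundant genes took 10.2% to 16.4% of a library. A floor of 3 reads corresponds to at most 4.40e-05% of a library, and this floor covers counting error only, since PCR copies are not separated. *set-26* itself had 10.1 and 8.54 CPM (counts per 1000000 reads, scaled by TMM library factors) in the control libraries and 9.78 and 11.9 CPM in the *set-26(-)* libraries. The groups overlapped, and 3′ reads do not show whether the deleted part is present, so the count of this gene checks nothing. The libraries are therefore those labelled *set-26(-)*. For *set-9*, its near-identical paralogue, 3 and 4 reads were counted in the controls and 10 and 11 in *set-26(-)*, and reads that fit both genes were not counted. *glp-1* had 8.37 and 7.79 CPM and 3.41 and 7.06 CPM, and the histone deacetylase gene *hda-1*, not targeted here, varied between replicates with 16.4 and 91.9 CPM and 94.4 and 29.3 CPM. Of 20 marker genes of germ line and oocytes, 7 could be tested and none was called by edgeR (1 at an unadjusted p under 0.05 and 1 by DESeq2), with a summed level of 20.8 to 28.5 CPM in the 4 libraries. Markers of sperm (13 tested), neurons (13), pharynx (8), hypodermis (8) and coelomocytes (3) gave no edgeR call either. At an unadjusted p under 0.05 they gave 3, 4, 5, 1 and 0 genes, and DESeq2 called 2, 1, 1, 0 and 0. Over all 12369 genes tested, 3227 had an unadjusted p under 0.05, 1612 of them higher and 1615 lower in *set-26(-)*. Here and below, counts at an unadjusted p are to be read against this share. The only calls among the markers were *myo-3*, a body wall muscle myosin, which rose (1.02 ± 0.22, SE), and *asp-1*, an intestinal aspartic protease, which fell (-0.94 ± 0.24). They were called in 5 and 4 of 11 alternatives, and both calls were lost when either *hcf-1(-)* library or *set-26(-)* replicate 1 was left out.

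Of 12369 genes tested, 551 were upregulated (4.45%) and 518 were downregulated (4.19%) in *set-26(-)* (edgeR's quasi-likelihood test, Benjamini-Hochberg adjusted p under 0.05). The median log2 fold change over all genes tested was 0.03. In the controls the downregulated genes were the more abundant and the upregulated genes the scarcer. The control level enters the change by which genes were called, so this contrast is in part built in. The median control level was 59.0 CPM for the downregulated genes and 6.42 CPM for the upregulated genes. The downregulated genes held 18.4% and 19.9% of all reads in the controls and 5.37% and 8.33% in *set-26(-)*. The upregulated genes went from 0.942% and 0.983% of reads to 4.21% and 3.86%. The typical size also differed. At least 8-fold changes were estimated for 152 upregulated and 69 downregulated genes, and the median size of a called change was 1.997 and 1.59 on the log2 scale. Both controls had 3 reads or fewer in 73 of the upregulated genes. In 13 of the downregulated genes both *set-26(-)* libraries did. Sizes over so few reads are uncertain, and their part in this difference was not tested. In every called gene the 2 libraries of one group lay apart from the 2 of the other, as did 53.6% of all tested genes. Leaving out 1 library could therefore hardly turn the sign of a called gene. Below, a gene left with too few reads to be tested is not counted as keeping its sign. The numbers depended on single libraries. Without *set-26(-)* replicate 1 the calls were 172 up and 85 down, while all 518 downregulated genes and 535 of the 551 upregulated genes kept their sign. Without replicate 2 they were 450 up and 361 down. Leaving out an *hcf-1(-)* library, which enters the fit through the spread and the filter on low counts, gave 286 up and 269 down (replicate 1) or 275 and 261 (replicate 2), and without control replicate 2 there were 502 up and 783 down. Among genes followed singly through the alternatives, *lys-1*, *fipr-26*, *acox-1.5*, *fat-5*, *cox-7C*, *ucr-11*, *nlp-20*, *col-49*, *nol-58* and *vit-2* were each called in 4 to 6 of 11, with the same direction in all. *vit-6* and *K08D8.12* were called in 7 of 11, again with the same direction in all. Genes picked after their values were seen, or named only as members of short lists, were not followed in this way. Some of them came close to the threshold, such as *spp-2* (adjusted p = 0.0498) and *far-5* (adjusted p = 0.0409, both edgeR).

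**Figure D1:**
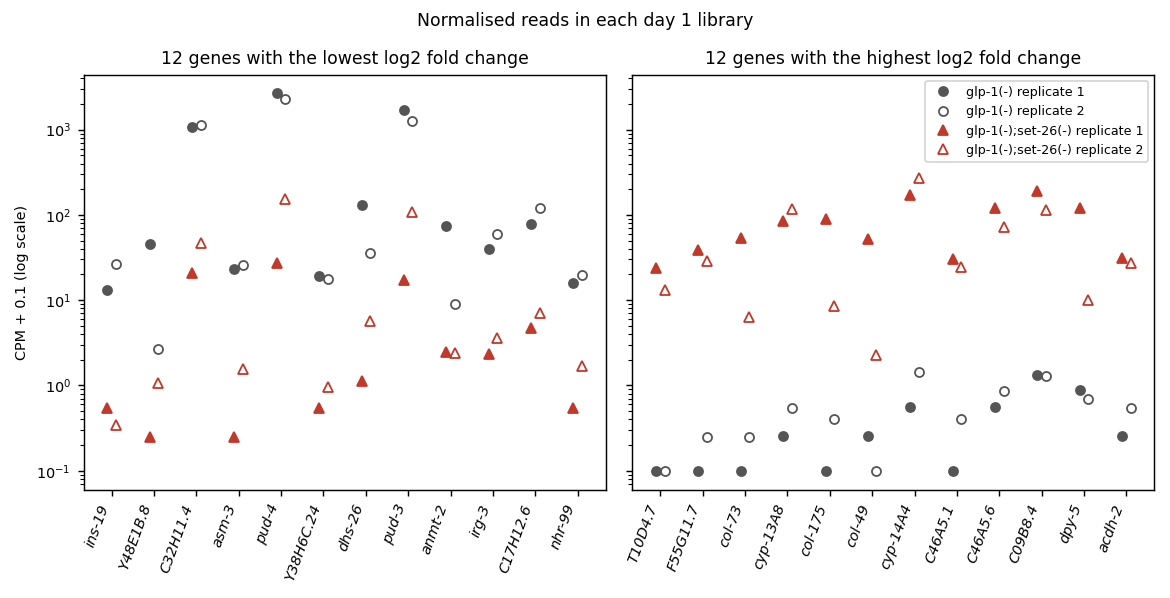
Normalised reads in the 4 day 1 libraries (CPM plus 0.1, log scale) for the 12 genes lowest and the 12 genes highest in log2 fold change among called genes with a mean of at least 50 reads. Grey circles are control libraries and red triangles *set-26(-)* libraries, filled for replicate 1 and open for replicate 2. The groups lie apart in each of the 24 genes, and the collagens *col-73*, *col-175*, *col-49* and *dpy-5* differ most between the 2 *set-26(-)* libraries.

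The largest part of the lost reads was yolk. The 6 *vit* genes together had 98283 and 99893 CPM in the controls and 12585 and 28189.6 CPM in *set-26(-)*. *vit-6*, which encodes the precursor of a pair of yolk proteins and gave the most reads of any downregulated gene, had 40664 and 40813 CPM in the controls against 7233 and 14157 CPM in *set-26(-)* (log2 fold change -1.93 ± 0.37, adjusted p = 0.0198, edgeR). *vit-5* had 15647 and 19225 CPM in the controls and 1074 and 2802 CPM in the mutant (-3.17 ± 0.46, adjusted p = 0.0069, edgeR). *vit-3* showed the deepest fall of the family, from 9263 and 9259 CPM to 422 and 1458 CPM (-3.30 ± 0.54, adjusted p = 0.0103, edgeR). *vit-4* (-2.43 ± 0.40) and *vit-2* (-2.08 ± 0.44) also fell. The remaining gene, *vit-1*, had 3347 and 3798 CPM in the controls and 369 and 1404 CPM in *set-26(-)* and did not pass (adjusted p = 0.0561, edgeR). In each *vit* gene *set-26(-)* replicate 1 lay below replicate 2, and both lay below the controls. The *vit* sequences are very alike, and how reads that fit several copies affected single genes was not tested. Without *set-26(-)* replicate 1, 3 of the 6 genes were called, and the family's median was -3.21 in replicate 1 and -1.76 in replicate 2 on the log2 scale.

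Of the 21 lists with at least 5 calls, infection-response genes had the largest share of falls after yolk. CUB-like proteins and the *dod* and *irg* genes are induced by bacterial infection in the intestine. Of 49 listed genes, 35 were tested, 17 fell and 2 rose (48.6% down, against 4.19% of all genes), and 16 did not pass. The median log2 fold change of the list was -1.11. *C32H11.4*, a CUB-like gene, had 1075 and 1143 CPM in the controls and 20.9 and 46.7 CPM in *set-26(-)*, a fall of 32.7-fold (-5.03 ± 0.50, adjusted p = 0.00136, edgeR). *irg-3* went from 39.8 and 60.1 CPM to 2.22 and 3.53 CPM (-4.10 ± 0.37) and *C17H12.6* from 77.1 and 119 to 4.59 and 7.06 CPM (-4.06 ± 0.33). Among the more abundant members, *sysm-1* fell from 2960.3 and 3227 CPM to 1250.5 and 1248 CPM and *irg-8* from 954 and 1276 CPM to 234 and 301 CPM. *irg-5* (-2.36 ± 0.28), *dod-23* (-2.06 ± 0.21), *dod-24* (-1.61 ± 0.22) and *dod-22* (-1.69 ± 0.24) fell as well. The groups did not overlap in these members, and 11 genes of the list were called down without *set-26(-)* replicate 1. The rises were *K08D8.12* (1.87 ± 0.36) and *F55G11.7*, which had 0 and 1 reads in the controls and 262 and 239 reads in *set-26(-)*, at least 74.3-fold higher when controls are set to the floor of 3 reads per library (adjusted p = 0.000468, edgeR).

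*F55G11.7* lies inside a cluster of CUB-like and *dod* genes. Between positions 12887062 and 12978343 of chromosome IV (WBcel235), 19 genes could be tested, and 7 of them fell and 2 rose. The other tested genes, 10 in number, did not pass. This region and every other run of neighbouring genes given here was chosen after the values were seen, so its counts are a description. In chromosome order, *K08D8.4* (-2.03), *K08D8.5* (-2.76), *C32H11.3* (-3.83) and *C32H11.4* (-5.03) fell as neighbours, and beyond *dod-24* (-1.61) came *F55G11.7* (8.53). Its next neighbour *F55G11.8* had 774 and 765 reads in the controls and 918 and 1119 in *set-26(-)* (0.21 ± 0.19, not called). *F55G11.4*, the most abundant gene of the region, had 1375 and 1664 CPM and 987 and 1029 CPM (-0.59 ± 0.26, not called). Several of these genes are paralogues, and reads that map to more than 1 place had been removed.

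**Figure D2:**
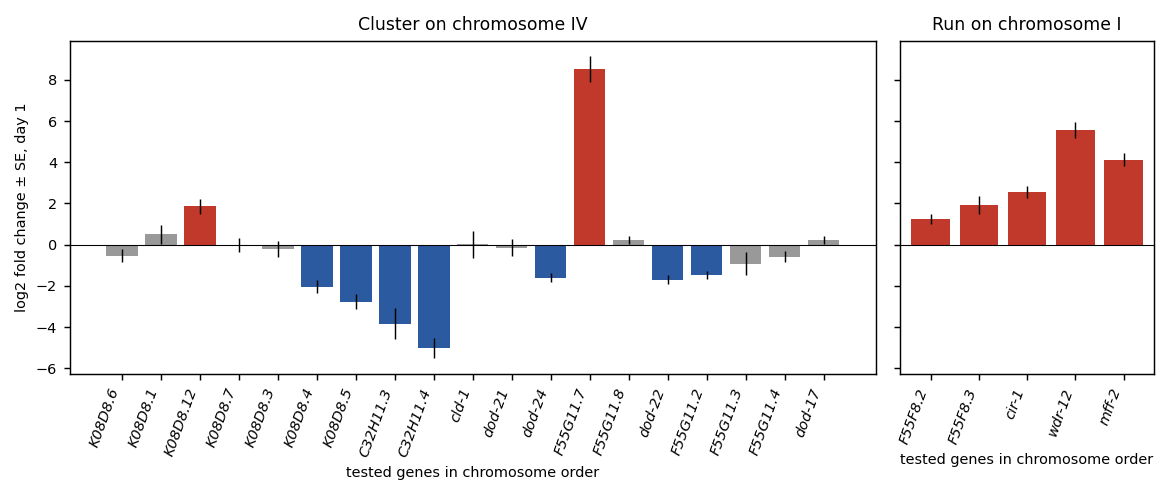
Log2 fold change with its standard error at day 1 for tested genes in chromosome order, in the chromosome IV cluster of CUB-like and *dod* genes (left) and a run of neighbours on chromosome I (right). Red bars are upregulated, blue bars downregulated and grey bars not called. *F55G11.7* stands at 8.53 among genes down to -5.03, and all 5 genes of the run are up, with the highest value for *wdr-12*.

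Lysosomal and digestive proteases also held more falls than rises. Of 29 listed, 23 were tested, of which 8 fell (34.8%, against 4.19% of all genes) and 3 rose (13.0%, against 4.45%). The median was -0.79. The summed level was 21612 and 20099 CPM in the controls and 10647 and 11418 CPM in *set-26(-)*. *cpr-6*, a cathepsin B-like protease, had 3052 and 2829 CPM in the controls and 454 and 783 CPM in *set-26(-)* (-2.25 ± 0.29, adjusted p = 0.00406, edgeR). *asp-14*, an aspartic protease, fell from 714 and 629.6 CPM to 73.1 and 95.9 CPM (-2.99 ± 0.24, adjusted p = 0.000555, edgeR). The cathepsin D-like *asp-4* (-2.56 ± 0.48), the cathepsin L *cpl-1* (-1.34 ± 0.23), the cathepsin Z *cpz-1* (-1.62 ± 0.28) and *cpr-9* (-1.46 ± 0.29) also fell. The rises were in close relatives. *cpr-8* had 29 and 24.9 CPM in the controls and 216 and 150.2 CPM in *set-26(-)* (2.76 ± 0.25), *cpr-5* went from 148 and 101 to 477 and 559.5 CPM (2.06 ± 0.25), and *asp-8* from 33 and 32.2 to 70.4 and 110.1 CPM (1.47 ± 0.28). Without *set-26(-)* replicate 1, 3 proteases were called up and 2 down.

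Lysozymes and antimicrobial peptides, which act on bacteria in the gut lumen, had 82 tested members of 114, of which 13 fell and 2 rose. These were 15.9% and 2.44%, against 4.19% and 4.45% of all genes. The list's median was -0.11, so the calls came from a minority of members. *ilys-5*, an invertebrate-type lysozyme, had 1949 and 1544 CPM in the controls and 85.1 and 173 CPM in *set-26(-)* (-3.76 ± 0.40, adjusted p = 0.00175, edgeR). *lys-3* fell from 69.2 and 77 to 4.89 and 10.2 CPM (-3.26 ± 0.37) and *lys-8* from 1282 and 974 to 185 and 374 CPM (-2.01 ± 0.34). *lys-7* (-1.77 ± 0.35) and *lys-1* (-0.94 ± 0.23) fell by less. The saposin-like *spp-5*, a pore-forming peptide, had 4632 and 4229 CPM in the controls and 908 and 1279 CPM in *set-26(-)* (-2.02 ± 0.26, adjusted p = 0.00357, edgeR). *spp-5* stands beside *spp-4* (-2.42 ± 0.33), *spp-2* (-1.69 ± 0.43) and *spp-3* (-1.12 ± 0.25) on chromosome X, between 7314969 and 7320354, where 4 of 5 tested genes fell. The fifth, *spp-6*, had 14 and 15 reads in the controls and 4 and 18 reads in *set-26(-)*. The rises were *fipr-7* (3.58 ± 0.76) and *fipr-26* (1.46 ± 0.36), both of which lost the call without *set-26(-)* replicate 1.

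C-type lectins, carbohydrate-binding proteins that are mostly secreted, moved both ways. Of 240 listed genes, 89 were tested, 20 fell (22.5%) and 9 rose (10.1%), against 4.19% and 4.45% of all genes. The median was -0.33. The falls included abundant lectins. *clec-50* had 2388 and 2117 CPM in the controls and 653 and 890.2 CPM in *set-26(-)* (-1.55 ± 0.24), and its neighbours by number *clec-48* (-1.73 ± 0.24) and *clec-49* (-1.85 ± 0.29) fell with it. *clec-190* fell from 174 and 206 to 28.2 and 37 CPM (-2.54 ± 0.28, adjusted p = 0.00197, edgeR). The rises came from scarce transcripts. *clec-17* had 7 and 5 reads in the controls and 441 and 311 reads in *set-26(-)* (5.79 ± 0.42, adjusted p = 0.000468, edgeR), and *clec-10* went from 5.42 and 4.8 to 91 and 71.3 CPM (3.99 ± 0.25). *clec-4* (2.61 ± 0.26) and *clec-47* (2.67 ± 0.26) also rose. Without *set-26(-)* replicate 1, 2 lectins were called down and 6 up.

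**Figure D3:**
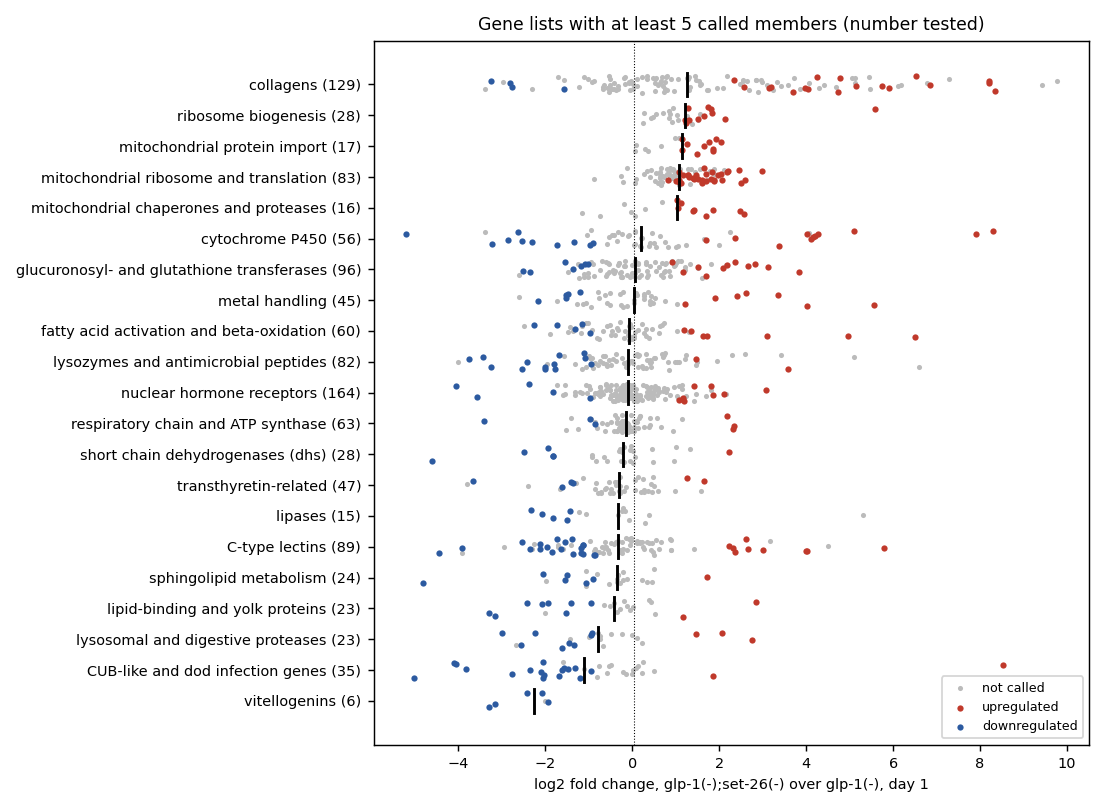
Log2 fold change at day 1 of every tested member of the 21 gene lists with at least 5 called genes, ordered by median (black bars), with the number tested in brackets. Red points are upregulated, blue points downregulated and grey points not called, and the dotted line is the median of all genes (0.03). Yolk, CUB-like and protease genes lie to the left. The lists of mitochondrial chaperones, translation and import and of ribosome biogenesis lie to the right, with no downregulated member. Collagens have the highest median (1.26), with 18 members up and 4 down.

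Genes of fat breakdown and lipid handling fell in part. Of 26 lipases listed, 15 were tested, and 5 fell (33.3%, against 4.19% of all genes). No rise was called by edgeR or DESeq2, and 1 lipase was higher at an unadjusted p under 0.05. *lipl-5*, a lysosomal lipase, had 1460.1 and 1232 CPM in the controls and 396 and 552 CPM in *set-26(-)* (-1.51 ± 0.24, adjusted p = 0.0097, edgeR). *lipl-2* fell from 67.4 and 82.1 to 11.6 and 18 CPM (-2.33 ± 0.27), and *lipl-1* (-2.08 ± 0.32), *lips-5* (-1.43 ± 0.26) and *fil-1* (-1.83 ± 0.40) fell too. *lipl-2* was the 1 lipase called without *set-26(-)* replicate 1. Of 24 sphingolipid genes, all tested, 6 fell (25.0%) and 1 rose (4.17%), against 4.19% and 4.45% of all genes. *asm-3*, an acid sphingomyelinase, had 149 and 171 reads in the controls and 1 and 12 in *set-26(-)* (-4.82 ± 0.60, adjusted p = 0.00309, edgeR). The glucocerebrosidase *gba-4* (-2.05 ± 0.30), the ceramidases *asah-2* (-1.56 ± 0.28) and *asah-1* (-1.06 ± 0.23) and the ceramide synthase *hyl-1* (-1.51 ± 0.29) fell. Beside the *vit* genes, the fatty acid and retinol binding proteins *far-3* (-1.51 ± 0.28) and *far-5* (-1.42 ± 0.34) fell, while the lysosomal lipid chaperone *lbp-8* rose from 7.9 and 7.79 to 29.3 and 84.1 CPM (2.85 ± 0.46).

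Fatty acid synthesis, elongation and desaturation had 1 call in 22 tested genes, the desaturase *fat-5* (-1.30 ± 0.27). This was 4.55% of the list, against 4.19% of all genes called down. Of the 22 genes, 16 were lower in *set-26(-)*, and the median was -0.50. DESeq2 called 6 of them down. *elo-5*, an elongase for branched-chain fatty acids, had 5812 and 146 reads in the controls and 49 and 105 in *set-26(-)*. Control replicate 1 alone was high, and the log2 fold change of -5.51 ± 1.42 did not pass (adjusted p = 0.0513, edgeR). The same library also stood above replicate 2 in the called genes *mev-1* (64.3 and 8.24 CPM), *anmt-2* (73.7 and 8.84 CPM), *ttr-44* (160.0 and 31.6 CPM), *dhs-26* (132 and 35.4 CPM) and *Y48E1B.8* (45.9 and 2.55 CPM). Of these, *mev-1*, a succinate dehydrogenase subunit, and *anmt-2*, an amine N-methyltransferase, lost the call without that library, and *Y48E1B.8* then had too few reads to be tested.

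The β-oxidation list went both ways, with 7 rises and 5 falls in 60 tested genes and a median of -0.08. The shares were 11.7% and 8.33%, against 4.45% and 4.19% of all genes. The mitochondrial acyl-CoA synthetase *acs-2*, which is induced by fasting, rose from 3.1 and 4.8 CPM to 155 and 93.2 CPM (4.97 ± 0.36, adjusted p = 0.000468, edgeR). The acyl-CoA dehydrogenase *acdh-2* had 1 and 3 reads in the controls and 211 and 222 in *set-26(-)*, at least 63.7-fold higher. *acdh-1*, the first enzyme of the propionate shunt, which breaks down propionate without vitamin B12, had 603 and 229 CPM in the controls and 1175 and 1380.1 CPM in *set-26(-)* (1.62 ± 0.41, adjusted p = 0.0474, edgeR). Its controls differed from each other, and the call was lost in 7 of 11 alternatives. *hach-1* of the same pathway rose from 14.7 and 11.2 to 39.1 and 46.8 CPM (1.73 ± 0.25). The falls were the peroxisomal oxidases *acox-1.2* (-2.26 ± 0.28) and *acox-1.5* (-1.31 ± 0.30), *acs-22* (-1.73 ± 0.26), *ech-4* (-1.15 ± 0.25) and *acdh-7* (-0.98 ± 0.23). Among short chain dehydrogenases 5 of 28 tested fell (17.9%, against 4.19% of all genes), among them the lipid droplet protein *dhs-3* (-2.49 ± 0.47). *dhs-25* rose from 67.5 and 53.5 to 303 and 258 CPM (2.21 ± 0.22).

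The detoxification families were split between strong rises and strong falls. Of 56 cytochrome P450 genes tested, 11 rose (19.6%) and 10 fell (17.9%), against 4.45% and 4.19% of all genes. The median was 0.19. Of the falls, 8 lay in the *cyp-35*, *cyp-25* and *cyp-37* subfamilies, with *cyp-35A2* going from 101 and 139 CPM to 18.2 and 30.5 CPM (-2.30 ± 0.31) and *cyp-35C1* from 41.4 and 54 to 6.67 and 9.61 CPM (-2.54 ± 0.28). *cyp-35A3* had 56 and 83 reads in the controls and 4 and 0 in *set-26(-)* (-5.20 ± 1.02). *cyp-37B1* (-3.23 ± 0.36) and *cyp-25A1* (-2.85 ± 0.34) fell likewise. The rises lay in *cyp-13A*, *cyp-14A* and *cyp-33*. *cyp-13A8* had 1 and 3 reads in the controls and 575 and 958 in *set-26(-)*, at least 221-fold higher (adjusted p = 0.000214, edgeR). *cyp-14A4* had 3 and 9 reads and 1151 and 2228 reads (7.89 ± 0.47), and *cyp-33C8* rose from 21.7 and 28.9 to 411 and 408 CPM (4.02 ± 0.24). *cyp-13A7* (5.10 ± 0.31) rose with its relative. Without *set-26(-)* replicate 1, 9 of the rises and 5 of the falls were called.

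Conjugating enzymes gave 11 rises and 7 falls in 96 glucuronosyl- and glutathione transferases tested. The shares were 11.5% and 7.29%, against 4.45% and 4.19% of all genes. *ugt-19* rose from 39.2 and 35.7 to 302 and 354 CPM (3.13 ± 0.22), *gst-14* from 1.55 and 1.5 to 19.6 and 24.4 CPM (3.84 ± 0.34) and *ugt-62* from 141 and 164 to 600.0 and 778 CPM (2.18 ± 0.24). *ugt-44* fell from 292 and 416 to 56.6 and 81.5 CPM (-2.36 ± 0.32) and *gst-22* from 56.2 and 40.2 to 7.11 and 9.61 CPM (-2.52 ± 0.28). The metal-handling list showed the same mixture, with 7 rises and 5 falls in 45 tested (15.6% and 11.1%). The cadmium-responsive genes *cdr-4* and *cdr-2* were among the most abundant upregulated transcripts. *cdr-4* had 172 and 110.5 CPM in the controls and 1418 and 1491 CPM in *set-26(-)* (3.36 ± 0.29, adjusted p = 0.000771, edgeR), and *cdr-2* had 146 and 193 CPM and 794 and 1294 CPM (2.62 ± 0.29). They lie with *cdr-3* (4.03 ± 0.63) and the haem-responsive *hrg-2* (2.40 ± 0.38) between 12407366 and 12417377 of chromosome V, where *cdr-6* (-0.64 ± 0.19) and *cdr-7* (-0.50 ± 0.29) did not pass. The metallothioneins, which bind the same metals, fell: *mtl-2* had 916 and 920.3 CPM in the controls and 101 and 307 CPM in *set-26(-)* (-2.17 ± 0.46), and *mtl-1* had 179.7 and 171 and 43.4 and 78.5 CPM (-1.52 ± 0.30). Of the ferritins, *ftn-2* fell (-1.21 ± 0.22) and *ftn-1* rose (1.21 ± 0.28).

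The lowest single value among ranked genes was that of an insulin-like peptide. For *ins-19* (chromosome II, 3126037 to 3126441) the controls gave 84 and 176 reads and *set-26(-)* gave 3 and 2, at least 48.7-fold lower (adjusted p = 0.00197, edgeR). Of 39 insulin-like genes 25 were tested and 2 fell (8.0%, against 4.19% of all genes). The other fall was *ins-7* (159.6 and 175 CPM to 46.2 and 79.6 CPM, -1.41 ± 0.27), an intestinal agonist of the insulin receptor DAF-2. On the same stretch of chromosome II, *T10D4.7*, 3117771 to 3118632, was the highest value of the ranked genes, with 0 and 0 reads in the controls and 162 and 107 in *set-26(-)*, at least 40.5-fold higher (adjusted p = 0.00139, edgeR). *T10D4.6*, which lies between them, had 8.52 and 13.3 CPM in the controls and 14.2 and 13.9 CPM in the mutant (0.36 ± 0.29, not called). The *pud* genes, whose proteins were found by their rise in insulin receptor mutants, fell as a cluster on chromosome V, where 4 of 5 tested genes between 2322038 and 2330930 were called. *pud-4* had 2659.6 and 2305 CPM in the controls and 27.4 and 153 CPM in *set-26(-)*, and *pud-3* had 1679 and 1272 CPM and 17.2 and 107 CPM. Replicate 1 of *set-26(-)* was the lower in both, and both lay below the controls (-4.78 ± 0.72, adjusted p = 0.00768, and -4.57 ± 0.75, adjusted p = 0.0103, edgeR). The other members of that cluster exist as near-identical copies, and their counts of 35 reads or fewer are uncertain. Nuclear hormone receptors, the largest transcription factor family of the worm, had 8 rises and 5 falls in 164 tested (4.88% and 3.05%, against 4.45% and 4.19% of all genes), with the lowest values in *nhr-99* (103 and 130 reads to 3 and 13 reads, -4.06 ± 0.64) and *nhr-55* (132 and 124 CPM to 8.6 and 12.7 CPM, -3.58 ± 0.26). Neuropeptide genes had 1 call in 93 tested (1.08%, against 4.19% of all genes called down), *nlp-20* (-1.01 ± 0.23).

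On the upregulated side the mitochondrial lists had no member called down by edgeR or DESeq2, and 2 of their 124 tested genes were lower at an unadjusted p under 0.05. Of 16 mitochondrial chaperones and proteases 9 rose (56.2%, against 4.45% of all genes), of 83 genes of mitochondrial translation 32, of 17 import genes 10, and of 8 fission and fusion genes 4. The medians were 1.04, 1.07, 1.14 and 0.95. The chaperone *hsp-6*, a reporter gene of the mitochondrial unfolded protein response, had 38 and 36.9 CPM in the controls and 252 and 165 CPM in *set-26(-)* (2.48 ± 0.27, adjusted p = 0.00197, edgeR). *hsp-60* rose from 6.35 and 10.9 to 48.3 and 54.3 CPM (2.57 ± 0.33). The proteases *spg-7* (1.39 ± 0.23), *ymel-1* (1.11 ± 0.26) and *lonp-1* (1.06 ± 0.26) rose by less, as did the prohibitins *phb-1* (1.42 ± 0.22) and *phb-2* (1.02 ± 0.25). The elongation factor *gfm-1* went from 9.45 and 7.79 to 56.5 and 47.7 CPM (2.59 ± 0.24), and the small-subunit protein *mrps-34* had the highest value of its list (2.99 ± 0.25). Import was represented by *tomm-70* (1.93 ± 0.23), *timm-23* (1.77 ± 0.22) and *scpl-4* (2.04 ± 0.23). The fission genes *mff-2* and *drp-1* rose from 4.34 and 6.29 to 74.7 and 112 CPM (4.13 ± 0.33) and from 10.2 and 9.29 to 76.2 and 74.6 CPM (2.95 ± 0.22). These lists differed little between the *set-26(-)* libraries, with medians of 1.07 and 0.98 for translation. Without replicate 1, 13 genes of mitochondrial translation were called up.

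The respiratory chain itself had 3 rises and 3 falls in 63 tested genes (4.76% each, against 4.45% and 4.19% of all genes) and a median of -0.14. None of 22 genes of the TCA cycle was called by edgeR or DESeq2. At an unadjusted p under 0.05 there were 7, against 3227 of all 12369 genes. The risers *cox-10* (2.17 ± 0.34), *cox-11* (2.35 ± 0.46) and *cox-18* (2.31 ± 0.50) are not subunits but help to assemble cytochrome c oxidase. A list of 19 tested genes for assembly of that enzyme and synthesis of coenzyme Q was drawn up after this was seen. Of these, 8 rose (42.1%, against 4.45% of all genes) and none had an unadjusted p under 0.05 for a fall. The rises included *coa-4* (7.44 and 9.44 CPM to 56.5 and 44.6 CPM, 2.58 ± 0.26) and *coq-1* (2.08 ± 0.39). The falls were the subunits *ucr-11* (-0.96 ± 0.24) and *cox-7C* (-0.86 ± 0.21) and, with the doubt given above, *mev-1*. The 12 protein genes of the mitochondrial genome, chosen after the values were seen, had no call by edgeR or DESeq2, none at an unadjusted p under 0.05 and a median of 0.20, with a summed level of 21162 and 23476 CPM in the controls and 24490.2 and 25891 CPM in *set-26(-)*. Cytosolic ribosomal proteins (78 tested) and the proteasome (33 tested) had no gene called by edgeR either. DESeq2 called 1 and 0 of them, and 2 and 8 had an unadjusted p under 0.05. Cytosolic heat shock proteins had 2 rises in 18 (11.1%), *hsp-16.2* (2.28 ± 0.24) and *hsp-16.41* (2.40 ± 0.38), which are close copies of each other.

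Ribosome biogenesis genes, which process ribosomal RNA in the nucleolus, had 11 rises in 28 tested (39.3%, against 4.45% of all genes). By edgeR, DESeq2 or an unadjusted p under 0.05 there were no falls. All 28 were higher in *set-26(-)*, with a median of 1.22. *fib-1*, the fibrillarin methyltransferase, had 11.9 and 8.99 CPM in the controls and 48.8 and 25.5 CPM in *set-26(-)* (1.82 ± 0.36), and *nol-58* had 15 and 7.04 and 71.3 and 26 CPM (2.14 ± 0.51). Replicate 1 was the higher of the *set-26(-)* libraries in both, and 1 gene of the list was called without it. *wdr-12* rose by more, from 3.41 and 6.14 CPM to 288 and 168 CPM (5.57 ± 0.40, adjusted p = 0.000468, edgeR). *wdr-12* and *mff-2* are neighbours on the minus strand of chromosome I, and a run of 5 genes there, from 5646369 to 5658712, was upregulated throughout, its bounds having been drawn around called genes. Beside them *cir-1* had 104 and 76.1 CPM in the controls and 625 and 429 CPM in *set-26(-)* (2.55 ± 0.30), *F55F8.3* had 7.13 and 3.6 and 26.4 and 14.1 CPM (1.91 ± 0.43), and *F55F8.2* had 22.3 and 20.8 and 58.7 and 43.1 CPM (1.24 ± 0.24). The annotated ends of *wdr-12* and *mff-2* touch, and whether reads of either were counted on the other was not tested.

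Another run of risers lay beside *hcf-1* on chromosome IV, between 7753408 and 7774275, where 4 of 6 tested genes rose. *C46A5.6* had 3 and 5 reads in the controls and 817 and 598 reads in *set-26(-)* (7.28 ± 0.42, adjusted p = 0.000214, edgeR). *C46A5.1* had 0 and 2 and 204 and 203 reads, at least 60.1-fold higher, and *dsb-3*, known for meiotic double-strand breaks, had 14 and 7 and 146 and 166 reads (3.69 ± 0.37). *hcf-1* itself had 9.29 and 10 CPM in the controls and 16.3 and 10.3 CPM in *set-26(-)* (0.46 ± 0.36, adjusted p = 0.466, edgeR), and did not pass, although the groups did not overlap. On chromosome V the uncharacterised neighbours *T16G1.7* (5.11 and 6.59 CPM to 90.3 and 105 CPM), *T16G1.6*, *T16G1.5* and *T16G1.4* rose by 2.58 to 4.05 on the log2 scale, while *lipl-1*, close by, fell.

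Collagens of the cuticle had 18 rises and 4 falls in 129 tested genes and a median of 1.26, and here the *set-26(-)* libraries disagreed in size. The share that rose was above the 4.45% of all genes called up. The share that fell, 3.1%, was below the 4.19% of all genes called down. Of the 129, 27 were at or under the floor in the controls and entered the test only through the mutant libraries. With these set to their bound the median was 0.97. How many of the 18 rises were among the 27 is not given here. *dpy-5* had 5 and 4 reads in the controls and 813 and 82 reads in *set-26(-)* replicates 1 and 2 (6.53 ± 1.26, adjusted p = 0.0202, edgeR). *col-175* had 0 and 2 and 611 and 69 reads, and *col-73* had 0 and 1 and 362 and 51 reads. The median over the list was 1.23 in replicate 1 and 0.26 in replicate 2. Without replicate 1, 4 collagens were called up, and without replicate 2, 41. Replicate 1 was thus the library with more collagen and less yolk messenger RNA, and the part of this in the other results was not tested. The falls went the same way in both libraries, as for *col-43* (57 and 50.4 CPM to 6.52 and 8.76 CPM, -2.81 ± 0.25). The summed collagen level, which rests on a few abundant genes, was 182634 and 145493 CPM in the controls and 159086 and 136504 CPM in *set-26(-)*.

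**Figure D4:**
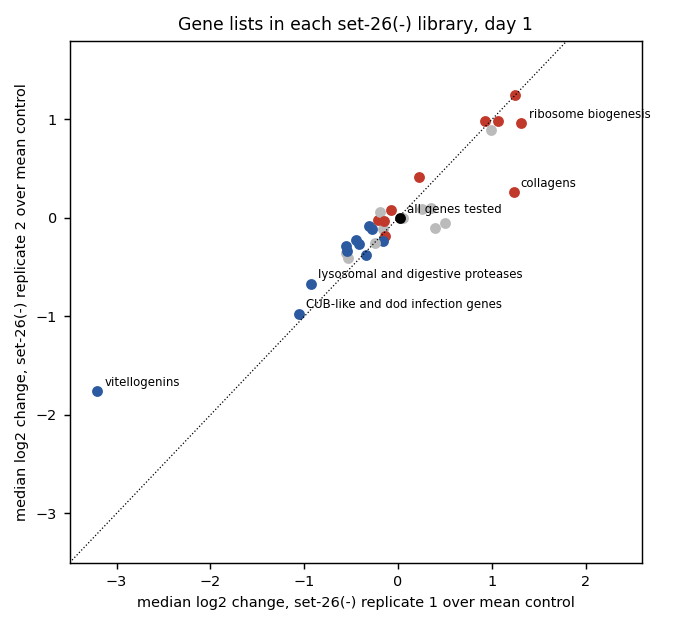
Median log2 change of each gene list in *set-26(-)* replicate 1 (horizontal) and replicate 2 (vertical), each over the mean of the controls at day 1. Red points are lists with at least 5 calls of which most were up, blue points the other lists with at least 5 calls, grey points the remaining lists and the black point all genes, and the dotted line marks equal values. Collagens (1.23 and 0.26) and vitellogenins (-3.21 and -1.76) lie farthest from the line.

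Genes outside these families were among the most abundant risers. *hrpa-2*, an RNA-binding protein gene, had 307 and 247 CPM in the controls and 1502 and 1102 CPM in *set-26(-)* (2.23 ± 0.25, adjusted p = 0.00197, edgeR). *tts-1*, a long non-coding RNA that binds ribosomes, had 468 and 1016 CPM and 2692 and 1699.9 CPM (1.57 ± 0.39, adjusted p = 0.0466, edgeR), and was called in 5 of 11 alternatives. *C09B8.4* rose from 8 and 8 reads to 1294 and 925 reads (6.94 ± 0.39). Among families noticed after the values were seen, acyltransferases of the *oac* family had 5 falls and no called rise in 14 tested (9 lower and 1 higher at an unadjusted p under 0.05, and 6 down by DESeq2). The falls were 35.7%, against 4.19% of all genes. They were led by *oac-20* (59.6 and 41.8 CPM to 5.78 and 6.45 CPM, -3.05 ± 0.35) and *oac-6* (189 and 223 CPM to 19.9 and 38.1 CPM, -2.83 ± 0.37). ABC transporters of the *pgp* and *haf* families had 6 rises and 2 falls in 20, with *pgp-9* going from 44.9 and 44.4 to 167 and 203 CPM (2.05 ± 0.21). The *pals* genes, some of which answer intracellular infection, had 4 rises and no called fall in 32 (5 and 0 by DESeq2, and 10 and 1 at an unadjusted p under 0.05), among them *pals-14* (3.19 ± 0.26) and *pals-6* (2.69 ± 0.26). The rises were 12.5%, against 4.45% of all genes. In 9 of the 32 both controls were at or under the floor, so these genes could hardly fall. With them set to their bound the median went from 1.25 to 0.52.

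The *hcf-1(-)* libraries of the same day were set beside these values. Both comparisons use the same 2 control libraries, so only the values are given side by side, and the mutants were tested against each other directly. Of the genes tested, 7.76% were upregulated and 5.84% downregulated in *hcf-1(-)*. There the yolk gene *vit-6* stood at -3.70 against -1.93 in *set-26(-)*, and *vit-5* at -5.06 against -3.17 on the log2 scale over control. Neither passed the test between the mutants (adjusted p = 0.0708 and 0.101, edgeR). Directly, 55 genes were higher in *set-26(-)* (0.445% of those tested) and 73 lower (0.590%). Of these 128 genes, 51 were called in *set-26(-)* against control, 35 up and 16 down. *clec-190* was -2.54 in *set-26(-)* and -7.28 in *hcf-1(-)*, a difference of 4.74 (adjusted p = 0.00217, edgeR). *cyp-13A8* (8.30 and 4.88, adjusted p = 0.00293), *F55G11.7* (8.53 and 4.65, 0.00835), *wdr-12* (5.57 and 3.51, 0.0329) and *mff-2* (4.13 and 2.47, 0.0439) were higher in *set-26(-)* by the same edgeR test. *clec-47* rose in *set-26(-)* (2.67) and stood at 0.07 in *hcf-1(-)* (adjusted p = 0.00793, edgeR). *lys-4* fell in *set-26(-)* (-2.55) and stood at -0.07 in *hcf-1(-)* (adjusted p = 0.0174, edgeR). *B0511.11* was -1.80 in *set-26(-)* and 2.74 in *hcf-1(-)*, the opposite sign (adjusted p = 0.00222, edgeR). It and *lys-4* were picked after their values were seen.

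The day 1 changes were followed to later ages in separate libraries. Per the paper's methods, worms for days 3 and 12 came from the population that remained after the day 1 collection. The days may therefore share cultures, and agreement between them is not that of independent cultures. The test between days did not model this. Of all genes tested, 8.17% were upregulated and 6.04% downregulated in *set-26(-)* at day 3, and 3.23% and 1.45% at day 12. Of the 551 genes upregulated at day 1, 510 were tested at day 3, and 481 had the same sign (94.3%, against 51.1% of all genes with a positive sign at day 3). Of the 510, 302 were called in the same direction and 3 in the opposite one. Of the 518 downregulated genes 509 were tested at day 3, 451 had the same sign (88.6%, against 48.9%), 259 were called down and 7 up. At day 12 the upregulated set still had 381 of 503 genes with the same sign (75.7%, against 49.4%) and 83 called, but the downregulated set had 266 of 493 (54%, against 50.6%), 24 called down and 13 called up. The median of the downregulated set went from -1.59 at day 1 to -0.64 at day 3 and -0.06 at day 12, and that of the upregulated set from 1.997 to 1.21 and 0.39. Both sets were chosen by their day 1 values, so smaller medians at later days are in part built in. By the test of the difference itself, 33 genes (0.242% of 13647) changed their *set-26(-)* effect between days 1 and 3 and 732 (5.36%) between days 1 and 12. In the upregulated set 11 genes did so by day 3 and 183 by day 12, and in the downregulated set 11 and 229. The day 1 values that chose the sets enter this test too. The lists moved unequally. The protease list went from a median of -0.79 to 0.26 at day 3, while the CUB-like list was still at -0.99 with 21 of its genes called down. At day 12 the CUB-like list stood at 0.80, with 4 genes called up by edgeR. Ribosome biogenesis stood at 0.36 at day 3, and mitochondrial translation at 0.96 at day 3 and 0.16 at day 12. Among single genes, *acdh-1* stood at 9.21 at day 3. *pud-4* stood at -3.78 at day 3 and -2.81 at day 12.

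**Figure D5:**
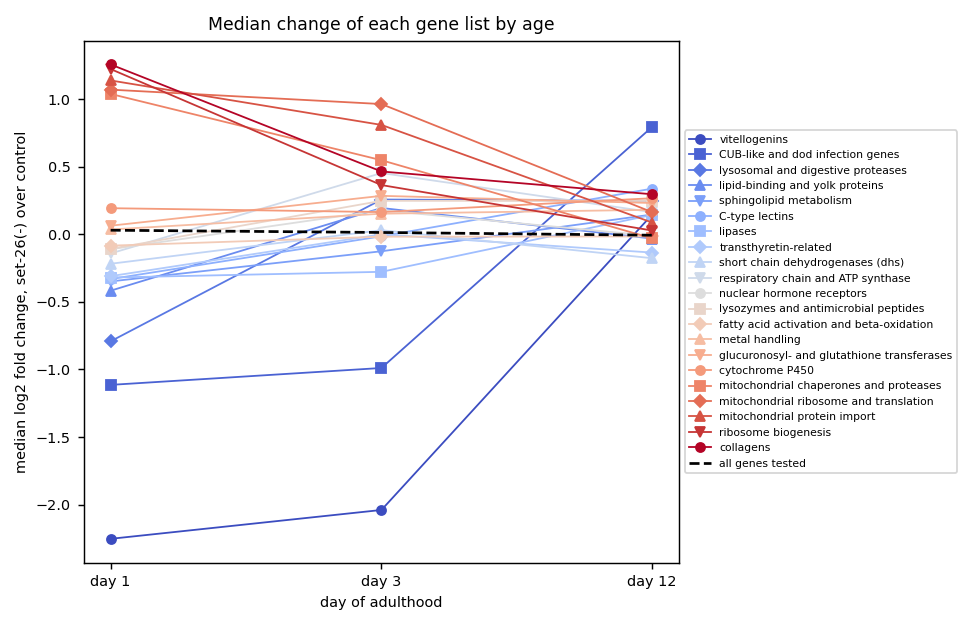
Median log2 fold change of *set-26(-)* over control at days 1, 3 and 12 of adulthood for the 21 gene lists with at least 5 calls at day 1, over members tested at day 1 that were also tested at the later day. The dashed line is the median of all those genes. Vitellogenins and CUB-like genes are low at days 1 and 3 (vitellogenins -2.25 and -2.04) and at or above the line at day 12.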

How the data were processed

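RNA was measured by QuantSeq 3′ mRNA sequencing from 315 ng of RNA per sample with 13 PCR cycles. Per the labels and the paper's methods, the authors trimmed reads (Trim Galore 0.6.5), aligned them to WBcel235 with STAR 2.7.9a, kept reads with a single mapping place and deposited raw counts per gene in 1 table, which were used as deposited.

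The 6 day 1 EV libraries were fitted together with edgeR 4.0.16 (R 4.3.3, TMM, quasi-likelihood test), for genes with more than 10 reads in at least 2 of them, and *set-26(-)* was contrasted with control and with *hcf-1(-)*. P-values were adjusted by Benjamini-Hochberg over all genes tested. SE is the log2 fold change divided by the square root of F. Changes between days were tested in 12 libraries. On simulated counts for the day 1 comparison (11920 genes, 100 changed at each size), 6% of 2-fold and 86% of 4-fold changes were recovered. In the data 8.64% of genes were called, a larger share than was changed in the simulation, and adjusted p-values depend on that share. The rates therefore describe the simulation only, in which 2-fold changes were mostly missed. Rates for scarce genes are not given separately.

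The members and gene lists were chosen with earlier results of these data known. Named genes are the mutated genes, the study's mitochondrial reporter genes, the 12 highest and 12 lowest called genes with a mean of at least 50 reads and no overlap, the 6 most abundant in each direction, up to 3 per list and direction, and all members of lists of 25 genes or fewer. Others were picked after their values were seen. Alternatives were DESeq2 1.42.0, its size factors, no filter, 4 libraries, a replicate block and each library left out. Promoter motifs and sequences were not analysed here.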

Additional observations from a re-analysis of the deposited data

Results flagged for a closer look

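Of 47 ranked or study-named genes, 4 had a *set-26(-)* effect that differed between days 3 and 1, and 23 between days 12 and 1, by edgeR's quasi-likelihood test of the difference itself (adjusted p under 0.05). Over all genes tested the shares were 0.242% and 5.36%. Many of the 47 were ranked by the size of their day 1 change, which enters these differences, so the counts are not to be read against those shares. Values are differences of log2 fold changes, later day minus day 1.

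At day 3 the rise of *drp-1* was smaller (-1.68), and the falls of the infection-response genes *C17H12.6* (2.23) and *C32H11.4* (2.83) were shallower. *acdh-1* moved furthest, by 7.59, from 1.62 at day 1 to 9.21 at day 3.

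At day 12 *C09B8.4* differed by -7.25 and stood at -0.34. The rises of detoxification and lipid genes gave differences of -6.96 for *cyp-14A4*, -6.89 for *acdh-2*, which could not be tested at day 12 alone, and -6.76 for *cyp-13A8*. *C46A5.1* differed by -3.89 and was still at 3.46. The mitochondrial genes gave -2.46 for *hsp-60*, -2.23 for *hsp-6*, -2.11 for *gfm-1*, -2.08 for *tsfm-1*, -2.01 for *tufm-1*, -1.93 for *scpl-4*, -1.86 for *drp-1*, -1.42 for *tin-9.1* and -1.39 for *timm-23*. *drp-1* was at 1.06 at day 12 and *hsp-6* at 0.22.

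Among the genes that fell at day 1, the differences at day 12 were 3.28 for *nhr-99*, 3.84 for *vit-4*, 4.16 for *vit-3*, 4.26 for *irg-3*, 4.27 for *Y38H6C.24*, 4.45 for *ins-19*, 4.59 for *anmt-2*, 6.39 for *C17H12.6* and 6.67 for *C32H11.4*. Of these, 6 stood above 0 at day 12, namely *C17H12.6* (2.32), *C32H11.4* (1.64), *vit-4* (1.38), *vit-3* (0.83), *anmt-2* (0.44) and *irg-3* (0.14). In the day 12 comparison itself *C17H12.6* alone of the 6 was called (adjusted p = 0.0379, edgeR). The others did not pass, as for *C32H11.4* (SE 0.99, adjusted p = 0.405, edgeR).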

How the results depend on the processing

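Counts of calls depended on the settings. Directions of called genes could hardly change, since none of these genes overlapped between the groups. Against 551 up and 518 down, DESeq2's Wald test gave 711 and 872, no filter on low counts 1010 and 1280, and the 4 libraries without *hcf-1(-)* 320 and 301, where 315 and 296 of the original calls were made again. With 1 library left out, upregulated counts ranged from 172 to 502 and downregulated counts from 85 to 783, lowest without *set-26(-)* replicate 1, where a single *set-26(-)* library is assumed to vary like the other groups. All 518 downregulated genes kept their sign under the DESeq2, no filter and replicate block settings, and 504 to 518 with a library left out. DESeq2's size factors gave 530 and 540. Genes that differed between the mutants numbered 128, but 381 with DESeq2 and 714 with no filter. Differences between days 3 and 1 numbered 33, but 240 and 734, and between days 12 and 1 732, but 1127 and 1552. The cause was not tested. *hda-1*, not called in any setting (0.19), turned to -0.57 without control replicate 1 and -0.89 without *set-26(-)* replicate 1, and ranged up to 1.91 without control replicate 2.

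With a replicate block 701 genes were up and 665 down, and 530 and 477 of the original calls were made again. The labels do not tie replicate numbers across genotypes, and the correlation of same-numbered deviations was 0.03 for control and *set-26(-)*, 0.18 for control and *hcf-1(-)* and 0.38 for *set-26(-)* and *hcf-1(-)*. The block gave 170 genes between the mutants, 33 for day 3 and 700 for day 12. With 2 replicates per group, their number limits precision more than counting for abundant genes, and for genes under about 3 reads in a library depth is the limit.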
